A study of Mus musculus with 35 samples.

Results

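Loss of the receptor for type I interferon was examined in haematopoietic progenitor cells (HPCs) of mice at postnatal day 7 (P7), by ATAC-seq, an assay that maps open chromatin from the places where the transposase Tn5 can reach the DNA. The comparison set the wild-type list of open regions against the list of mice labelled Infnar_KO, and held 6 of the 35 libraries and 2 of the 12 peak lists of the series. Both groups were P7 HPCs (Lin- Sca-1+ Kit+ cells positive for CD48, as the 48+LSK in the titles is read) on a B6 background, 3 libraries each, with no treatment given in the labels, and they differed by the genotype label alone. The label does not say which subunit of the receptor was altered or how, and it does not say whether the 3 libraries of a group came from separate mice. The title of 1 knockout library ends in U3, a code that a wild-type library also carries, whereas its description reads Y3. Each group has a single deposited list for its 3 libraries, so there is no spread between replicates, no test between the groups, and no value without that library. The same set holds P7 HSC lists of both genotypes. The other 8 lists, called the stage lists below, come from a separate part of the study on fetal (E16.5), P7, P14, P21 and adult (8 weeks) HPCs and fetal, P14 and adult HSCs.

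Type I interferons bind a receptor made of IFNAR1 and IFNAR2, which signals through the kinases JAK1 and TYK2 to a complex of transcription factors with STAT2 and IRF9 among its parts. This complex binds the interferon-stimulated response element (ISRE) in front of antiviral genes, the interferon-stimulated genes. In blood formation the same signal is known to act on stem and progenitor cells, which carry the receptor even without infection. HPCs lie below the haematopoietic stem cells (HSCs) and feed the myeloid and lymphoid lines.

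Touching peaks of a list were joined into regions on chromosomes 1 to 19 and X. A region is called alone here when no region of the other list overlaps it by 1 bp or more, and a region that a list lacks was not called there, which does not show that the DNA was closed. The -log10 p and fold of a region are those of the authors' peak caller and serve to describe and rank regions within a list. Bracketed ranges are exact Clopper-Pearson intervals at 95%, which hold the counting error and nothing else.

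Some interferon-stimulated genes had an open start in the wild-type list alone. Of 61 antiviral and other effectors of the interferon response with a start in the RefSeq promoter table, 48 had a region over the start in wild type, and 7 of these starts (14.6%, 6.07 to 27.8) had none in the knockout. Over all 17274 genes with a start, 284 of the 10095 called in wild type were called there alone (2.81%). In the other direction none of the 41 effector starts called in the knockout was missing from wild type, while over all genes 216 of 10027 were called in the knockout alone (2.15%). At 2 more effectors a shared region reached the start in a single list, and these are in neither count. The 7 were Isg15, a ubiquitin-like protein attached to other proteins, Ifit3, Ifit3b and Ifit1bl1, of the family that binds foreign RNA, Oas1a, of the enzymes that make 2-5A from double-stranded RNA, Gbp5, a guanylate-binding GTPase, and Phf11b, a PHD finger gene.

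These start regions were weak. Their -log10 p in wild type was 28.7 at Isg15, 32.1 at Ifit3, 34.3 at Ifit3b, 38.8 at Gbp5, 42.0 at Oas1a, 47.8 at Ifit1bl1 and 64.8 at Phf11b, all under the median of the list, 87.1. Weak regions are often missing from the other list, so the same count was taken by strength. Among starts in the weakest 30% of wild-type regions, 6 of 8 effectors were called in wild type alone, against 249 of 874 genes (28.5%). Among those between 30 and 50%, the counts were 1 of 6 effectors and 34 of 1000 genes (3.40%), and none of the 34 stronger effector starts was missing from the knockout. At equal list length 6 of 46 effectors (13.0%) were in wild type alone, against 1.49% of all genes, since the Isg15 region fell below the limit, and 1 of 41 in the knockout alone (Irgm2, an immunity-related GTPase), against 3.26%. In the full knockout list, 0 of 3 effectors and 196 of 880 genes (22.3%) in the weakest 30% were called there alone.

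A further interferon gene stood out, chosen after its values were seen because its Gm name keeps it off the gene lists. Of the 8221 genes whose wild-type start region was in the upper 50% of the list, a single gene lacked a region in the knockout: Gm12250, which encodes the interferon-inducible GTPase IRGB10. Its start region had a -log10 p of 105 in wild-type HPCs and 80.3 in wild-type HSCs, and none was called in knockout HPCs or knockout HSCs. It was also called in P7 HPCs of the stage lists (24.6), P21 HPCs (29.0), in P14 and adult HPCs (66.4 and 61.8) and in P14 and adult HSCs (75.4 and 77.2), and in neither fetal list. Strong starts were missing from wild type as well. Of the 8170 genes whose knockout start region was in the upper 50% of its list, 4 lacked a region in wild type. These were Zfp932, Dab2ip, Unkl and Kcnh6.

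The DNA in front of these starts is shown because the wild-type region that the knockout list lacks covers it at each gene. Each run holds 130 bases of the gene's own strand, 5′ to 3′, from RefSeq on GRCm38.p6. Capitals mark matches, on either strand, to the ISRE (GAAA, 2 bases of any kind, then GAAACT) at Gbp5, Ifit3, Oas1a and Phf11b. At Gm12250, Ifit1bl1 and Isg15, which had no such match, they mark its shorter core (GAAA, 2 bases of any kind, then GAAA), which every ISRE match contains. The runs lie at chr4:156200819-156200948 on the minus strand for Isg15, chr5:120907526-120907655 (minus) for Oas1a, chr14:59341331-59341460 (minus) for Phf11b, chr3:142496708-142496837 (plus) for Gbp5, chr19:34583312-34583441 (plus) for Ifit3, chr19:34601969-34602098 (minus) for Ifit1bl1 and chr11:58183713-58183842 (plus) for Gm12250.
Isg15: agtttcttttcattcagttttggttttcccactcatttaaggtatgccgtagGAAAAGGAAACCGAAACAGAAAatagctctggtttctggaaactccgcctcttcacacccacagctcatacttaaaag
Oas1a: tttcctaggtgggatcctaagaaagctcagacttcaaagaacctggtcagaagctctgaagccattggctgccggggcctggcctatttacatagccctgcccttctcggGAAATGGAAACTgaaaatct
Phf11b: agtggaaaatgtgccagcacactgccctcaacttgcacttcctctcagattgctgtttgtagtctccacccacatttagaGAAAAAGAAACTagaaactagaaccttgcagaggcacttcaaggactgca
Gbp5: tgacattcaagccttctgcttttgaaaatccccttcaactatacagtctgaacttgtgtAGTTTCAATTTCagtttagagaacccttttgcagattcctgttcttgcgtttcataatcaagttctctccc
Ifit3: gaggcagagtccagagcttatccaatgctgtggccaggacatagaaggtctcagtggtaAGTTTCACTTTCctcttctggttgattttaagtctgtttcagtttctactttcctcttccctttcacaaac
Ifit1bl1: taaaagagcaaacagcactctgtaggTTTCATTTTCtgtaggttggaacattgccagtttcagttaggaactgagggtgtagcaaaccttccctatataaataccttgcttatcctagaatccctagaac
Gm12250: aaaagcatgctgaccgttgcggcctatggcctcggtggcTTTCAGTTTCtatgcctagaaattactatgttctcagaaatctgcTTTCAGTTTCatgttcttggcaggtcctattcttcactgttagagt

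The match in Oas1a begins 20 bases before the start, that in Phf11b 50, and Isg15 has 3 core matches that overlap each other. The stretch printed for Ifit3 is letter for letter the one in front of Ifit3b at chr19:34607708-34607837, so reads there cannot be told apart by sequence, and both genes are given as uncertain. The ISRE was found in 89 of 32619 promoter windows of 300 bases (0.273%), its core in 1129 (3.46%). By gene, it was in 18 of 61 effectors (29.5%), in 5 of the 7 effectors called in wild type alone and in 11 of the 41 called in both lists. The core was in 7 of 7 and in 21 of 41. Outside the gene lists, of 24 other genes with an ISRE and a start called in wild type, 0 were called there alone, and of 25 in the knockout 1 was called there alone. A match is a run of letters and does not show binding.

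Effectors whose start was called in both lists were also compared by rank. To set ranks side by side, the wild-type list was cut to the 58567 strongest regions, the length of the knockout list. Of 40 effectors, 26 (65.0%) ranked higher in wild type, against 27.5% of all 9702 genes called in both, and the median difference was 1.34 percentile points for the effectors and -1.75 for all. Gbp2, another guanylate-binding GTPase, with an ISRE match, lay furthest apart. Its start had a -log10 p of 105 in wild type and 18.4 in the knockout, or percentiles 51.4 and 1.79. Within 10 kb of Gbp2 the strongest knockout region had 76.0, and wild type had 3 regions and the knockout 4, none of them alone. Whether the wild-type start region was split into parts in the knockout was not tested. At each gene the strongest start was taken. Sp100, a nuclear body protein, followed (72.5 and 37.0), then Slfn8, of the schlafen family (87.1 and 48.2), and Isg20, an exonuclease (129 and 73.7). The largest differences in the other direction were at Igtp, an interferon-inducible GTPase (46.8 in wild type and 56.5 in the knockout), and Samhd1, which limits the supply of nucleotides (71.5 and 76.5). At Adar, the RNA-editing enzyme ADAR1, the weaker start had 99.0 in wild type and 33.0 in the knockout and the stronger one 419 and 452. The split rests in part on the measure: ranked by fold, 17 of 40 effectors (42.5%) were higher in wild type, against 22.9% of all genes.

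**Figure D1:**
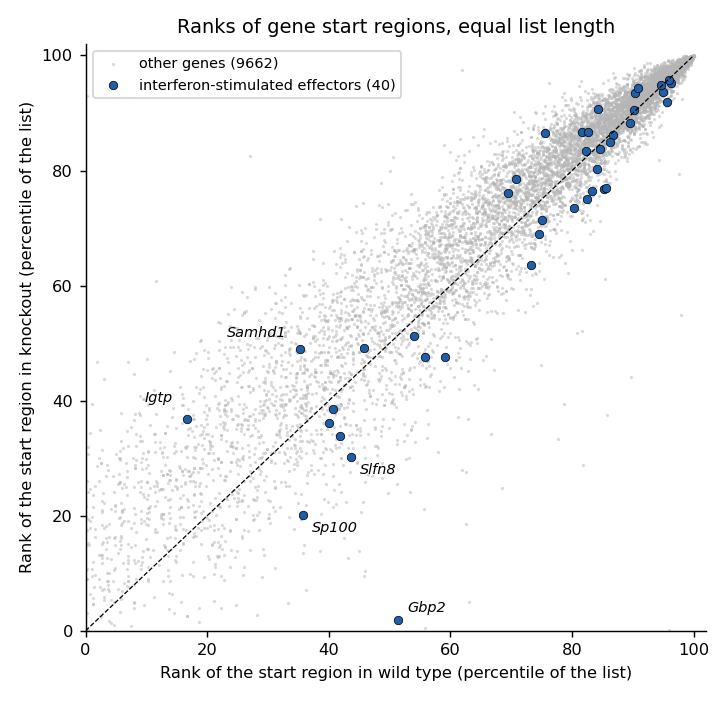
Percentile rank by -log10 p of the region over each gene's start in the wild-type list (x axis) and in the knockout list (y axis), at equal list length, for the 40 interferon-stimulated effectors (blue) and all other genes (grey) called in both. The dashed line marks equal rank, and 26 of the 40 effectors lie below it, with Gbp2 furthest at 51.4 and 1.79.

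Most effector starts were called in both lists. Ifit1 had a -log10 p of 275 in wild type and 165 in the knockout, Ifit2 of 547 and 481, Rsad2, the antiviral enzyme viperin, of 387 and 293, and Bst2, the virus tether tetherin, of 298 and 338. Usp18, which removes ISG15 from proteins and dampens the receptor, had no start in the promoter table. Its strongest region within 10 kb of the gene reached 438 in wild type and 305 in the knockout. Mx1 and Mx2, listed as pseudogenes in the gene table, each had a region in the gene in both lists. The strongest nearby had a -log10 p of 207 (wild type) and 90.5 (knockout) for Mx1, and of 181 and 155 for Mx2. By number the knockout had more regions nearby, 3 against 2 at Mx1 and 3 against 1 at Mx2, with 1 called in the knockout alone at each. Both genes lie on chromosome 16, as the receptor genes do, and linked DNA and an effect of the missing receptor cannot be told apart there.

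Of the receptor and its signalling chain, 10 of 11 genes with a start were called, and all 10 in both lists. The start of Ifnar1, one chain of the receptor, had a -log10 p of 797 in wild type and 794 in the knockout, so the peak list does not show the altered allele, and it cannot check the label. The start of Ifnar2, the other chain, had 254 and 200, those of the kinases Jak1 and Tyk2 661 and 581, and 661 and 605, that of Stat2 695 and 613, and that of Irf9 456 and 425. Within 10 kb of Ifnar1 the knockout had 1 region alone, at chr16:91475752-91476340 (71.2), 8692 bp in front of the gene. Around Jak1, 6 of 18 wild-type regions were missing from the knockout and none the other way, with -log10 p from 20.4 to 44.6. A strong region in Ptpn6, the phosphatase SHP-1 that damps JAK signalling, was called in wild type alone (chr6:124720838-124721426, 116).

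Among the interferon regulatory factors, which switch on interferon and its targets, 6 of 7 starts were called in both lists. Irf7, the amplifier of interferon production, had 126 in both. Irf5 was called in the knockout alone, at 23.8. Of the sensors of foreign nucleic acid, all 11 starts that were called were called in both, among them Ifih1, the RNA sensor MDA5 (415 in wild type and 418 in the knockout), and Ddx58, the RNA sensor RIG-I (37.0 and 32.1). A strong region 1570 bp from the end of Cgas, the DNA sensor that makes cGAMP, was in wild type alone (chr9:78428039-78428948, 142), while the knockout had a weaker region of its own close by (chr9:78427398-78427704, 31.0). The same Cgas region was in all 5 HPC stage lists, from 47.4 to 127, and in neither P7 HSC list. Of the genes of antigen presentation, 18 of 19 called starts were in both lists, and 10 of these 18 (55.6%) ranked higher in wild type by -log10 p, against 27.5% of all genes, and 5 of 18 (27.8%) by fold, against 22.9%. B2m, the light chain of MHC class I, had 655 and 430, and H2-DMa, which loads MHC class II, was called at its start in the knockout alone (39.2). That H2-DMa region also overlaps the gene Brd2. With any region within 1 kb of the start counted, 0 starts of antigen presentation were in the knockout alone. Within 10 kb of H2-DMa, 3 regions were in wild type alone and 1 in the knockout alone.

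The P7 HSC lists of the same 2 genotypes gave a second reading, from 3 wild-type and 2 knockout libraries. There 6 of 39 effector starts (15.4%) were called in wild type alone, against 463 of 9637 genes (4.80%), and 1 of 34 in the knockout alone, against 245 of 9419 (2.60%). The 6 were Isg15, Oas1a, Gbp2, Igtp, Irgm1 and Dtx3l, so that Isg15 and Oas1a were missing from both knockout lists. At Isg15 the -log10 p was 28.7 in wild-type HPCs and 34.0 in wild-type HSCs, and at Oas1a it was 42.0 and 33.4. The cell types differed at Igtp, which ranked higher in the knockout in HPCs, and at Slfn8, the start called in knockout HSCs alone, which ranked higher in wild type in HPCs. They differed too at the rest of the 7 starts called in wild-type HPCs alone. The regions at Ifit3, Ifit3b, Ifit1bl1 and Gbp5 were called in neither P7 HSC list. The Phf11b region was called in both, at 16.3 in wild type and 19.9 in the knockout. The HSC lists held 45615 and 42459 regions, and their start counts were not taken by strength or at equal length. Over all genes, 42 starts were called in wild type alone in both cell types and 21 in the knockout alone in both. By -log10 p in HPCs the 42 were led by Gm12250 (105) and Dscam, an adhesion gene on chromosome 16 (69.6), and the 21 by Zfp932 (369).

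Over the whole genome the 2 lists differed chiefly in weak regions. The wild-type list held 66044 regions (39.6 Mb) and the knockout list 58567 (36.2 Mb), with median -log10 p of 87.1 and 78.4 and median fold of 12.5 and 12.1. Of the wild-type regions, 13061 (19.8%, 19.5 to 20.1) were called there alone, and of the knockout regions 5663 (9.67%, 9.43 to 9.91). With the wild-type list cut to the length of the knockout list, the counts were 7607 (13.0%) and 7562 (12.9%). The sources used here give no read depth. Its part in these counts was not tested.

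The share of regions called alone went down with strength. With each list split by -log10 p into 10 bins of equal size, 74.2% of wild-type regions in bin 1, the weakest, were missing from the knockout, 10.3% in bin 5 and 0.560% in bin 7. In the knockout list the shares in the same bins were 46.9%, 2.19% and 0.120%. Of the regions in the upper 50% of a list by -log10 p, called strong below, 279 of 33022 were in wild type alone (0.845%, 0.749 to 0.950) and 50 of 29284 in the knockout alone (0.171%, 0.127 to 0.225). At equal length these were 126 (0.430%) and 51 (0.174%), so wild type kept the larger number, 71.2% of strong regions called alone. Without chromosome 16, where both receptor genes lie, they were 267 and 47, or 118 and 48 at equal length. In the P7 HSC pair the strong counts were 295 (1.29%) and 98 (0.462%).

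**Figure D2:**
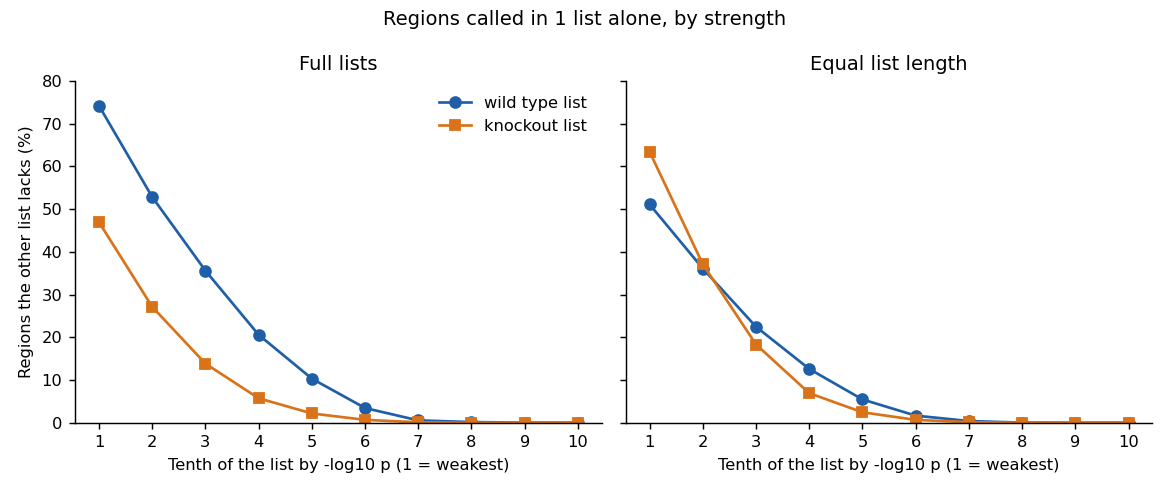
Share of regions that the other P7 HPC list lacks (y axis, percent) in each of 10 bins of equal size by -log10 p (x axis, 1 is the weakest), for the full lists (left) and for lists of equal length (right). In the full lists the share is 74.2% in the weakest and 0.0151% in the strongest bin of wild type (blue circles) and 46.9% and 0.0341% in the knockout (orange squares), and at equal length the weakest bins hold 51.1% and 63.4%.

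Regions of wild type alone lay away from gene ends. Of the strong ones, 12 of 279 (4.30%, 2.24 to 7.39) were within 1 kb of either end of a protein-coding gene, against 10088 of the 32743 strong regions of wild type that the lists shared (30.8%). Of the strong regions of the knockout alone it was 9 of 50 (18.0%, 8.58 to 31.4), against 33.8% of shared ones. They were also narrow, with a median width of 501 bp in wild type and 459 bp in the knockout where strong shared regions had 662 and 684 bp. They were weaker as well, with a median -log10 p of 99.4 against 188 for strong shared regions in wild type. In the knockout the medians were 87.3 and 164. The shares and widths were not matched for strength. In all, 22.3% of wild-type and 24.3% of knockout regions were at gene ends.

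The 12 strongest regions of each direction are given with 1 region a gene, for genes within 50 kb and leaving out predicted genes with Gm and Rik names. In wild type they were led by a 241 bp region 25 kb from Col19a1, a collagen gene (chr1:24612996-24613236, 2818). It was called in 7 of the 12 lists and missing from both knockout lists, P21 HPCs, fetal HSCs and P14 HSCs. Its value was the highest of the list in wild-type P7 HPCs and HSCs and in fetal, P14 and adult HPCs. In P7 HPCs of the stage lists it was 10.1. The cause of this uneven signal was not tested. The next lay 35 kb from Hunk, a kinase gene, at chr16:90349627-90350213, with 322 in wild-type HPCs and 248 in wild-type HSCs. It was in all 8 stage lists, from 81.7 to 510, and missing from both knockout lists. The same held for a region 12 kb from Vps26c, a gene of endosome sorting (chr16:94484850-94485585, 237), for one inside Nfkb1, the NF-kappa-B subunit p105/p50 (chr3:135628479-135629257, 168), and for one near Foxn2, a forkhead gene (chr17:88403143-88403739, 156). Their values in wild-type HSCs were 69.1, 29.2 and 28.8. Regions inside Igf1r, the receptor for insulin-like growth factor 1 (chr7:68208981-68209697, 170), near Slc25a28, a mitochondrial iron carrier (168), near Rnase2a, a ribonuclease gene (162), and inside Vmp1, a gene of autophagy (144), were missing from knockout HPCs and called in knockout HSCs at 46.4, 52.8, 103 and 55.5. A region near Pdcd1lg2, the checkpoint ligand PD-L2 (159), was called in HPC lists alone, 6 of them. Those near Olfr140, an olfactory receptor gene (158), and Mchr1, a receptor gene of the nervous system (144), complete the 12.

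The knockout had fewer and weaker regions of its own. The strongest lay 6 kb from Mid1, a ubiquitin ligase gene at the pseudoautosomal boundary of the X chromosome (chrX:169996829-169997388). It had a -log10 p of 422 in knockout HPCs and 264 in knockout HSCs, and none of the other 10 lists called it. A region over the start of Zfp932, a zinc finger gene (chr5:109996079-109996829), had 369 and 244 in the 2 knockout lists. It was called in all 8 stage lists, whose labels name no knockout, from 476 to 1801, and was missing from both wild-type P7 lists compared with the knockout. A region in Vps26c (chr16:94509994-94510577, 221 in HPCs and 54.9 in HSCs) was otherwise called only in P21 HPCs (30.1). Sema4d, a semaphorin that acts on lymphocytes, held a strong region of wild type alone (chr13:51763304-51763682, 101). It also had 2 strong regions of the knockout alone (128 and 103), no other gene having 2. The rest were at Trim30d (112), of the antiviral TRIM family, Prex1 (105), a Rac activator, Unc93b1 (105), which carries Toll-like receptors to endosomes, Tia1 (105), an RNA-binding protein of stress granules, Samd14 (104), Cops8 (93.1), of the COP9 signalosome, Cfap298 (90.4) and near LOC115489044 (100). Of these, the Samd14 region was called elsewhere in fetal HPCs alone (85.5), and the Trim30d region was strongest in fetal HPCs and fetal HSCs (235 and 200).

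**Figure D3:**
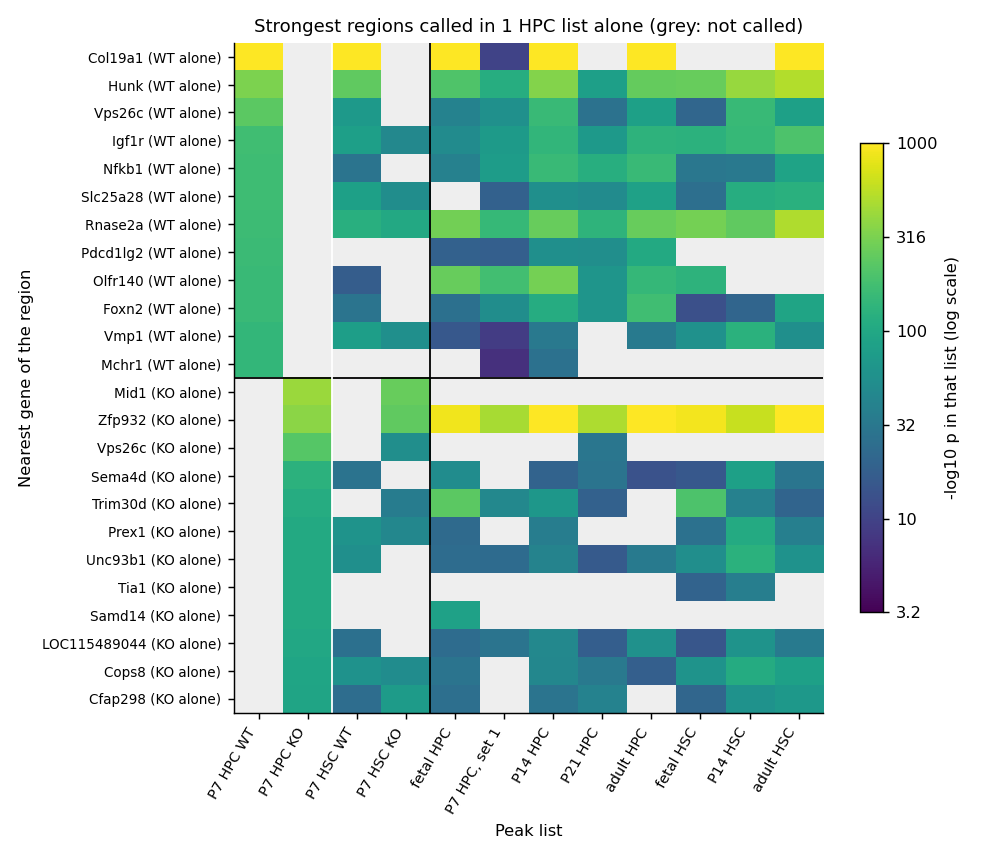
The -log10 p, on a log colour scale from 3.2 to 1000, of the 12 strongest regions called in wild-type HPCs alone (upper rows) and the 12 called in knockout HPCs alone (lower rows), named by the nearest gene, in each of the 12 peak lists, with grey where no region was called. The Hunk, Vps26c, Nfkb1 and Foxn2 regions are grey in both knockout lists and coloured in the other 10, and the Mid1 region is coloured in both knockout lists only (422 and 264).

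Some of these regions lie on chromosome 16 near the receptor genes. On that chromosome 19.5% of wild-type and 10.4% of knockout regions were alone, within the range over the 20 chromosomes (17.2 to 22.4% and 8.49 to 12.9%). For strong regions chromosome 16 had 1.06% and 0.305%, where the highest of the 20 were 1.20% and 0.322%. Within 5 Mb of Ifnar1, 4 of 206 strong wild-type regions were alone (1.94%), against 8 of 923 farther off (0.867%), and 2 of 188 strong knockout regions (1.06%) against 1 of 794 (0.126%). Among the strong regions of 1 genotype that were missing from the other in both HPCs and HSCs, 4 of the 29 of wild type were on chromosome 16 (Hunk, Vps26c, D16Ertd472e and Dscam), and 1 of the 13 of the knockout (Vps26c). For scale, chromosome 16 held 1129 of the 33022 strong wild-type regions and 12 of the 279 alone in HPCs. For the knockout it held 982 of 29284 and 3 of 50. DNA linked to the altered allele and an effect of the missing receptor cannot be told apart there.

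Within gene bodies and 10 kb on each side, the interferon lists were read against all genes. Over all 21631 protein-coding genes 17.8% of wild-type and 9.34% of knockout regions in such windows were alone. For the effectors it was 31 of 193 (16.1%) and 11 of 172 (6.40%), for the receptor and signalling genes 14 of 77 (18.2%) and 3 of 67 (4.48%), for the regulatory factors 4 of 43 (9.30%) and 2 of 39 (5.13%), for the sensors 11 of 74 (14.9%) and 8 of 68 (11.8%), and for antigen presentation 15 of 81 (18.5%) and 7 of 72 (9.72%). At equal length the effectors stood at 8.77% and 8.14%, beside 11.5% and 12.5% for all genes. Counted by gene, 29 of the 72 effectors had more regions of wild type alone and 8 more of the knockout alone (40.3% and 11.1%), beside 5488 (25.4%) and 2372 of all 21631 protein-coding genes, with or without a region. Neighbouring genes share regions in these windows, so that the same region at the Ifit genes counts for Ifit3 and for Ifit1bl1. Ifit1bl1, whose span takes in neighbouring Ifit genes, had 4 against 0, and Gbp5 and Ifit3b each 2 against 0. Strong regions of wild type alone lay in Herc6, the ISG15 ligase of mice (chr6:57641642-57642197, 126), and Sp100 (chr1:85698096-85698511, 100), and no strong region of the knockout alone lay near any effector.

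**Figure D4:**
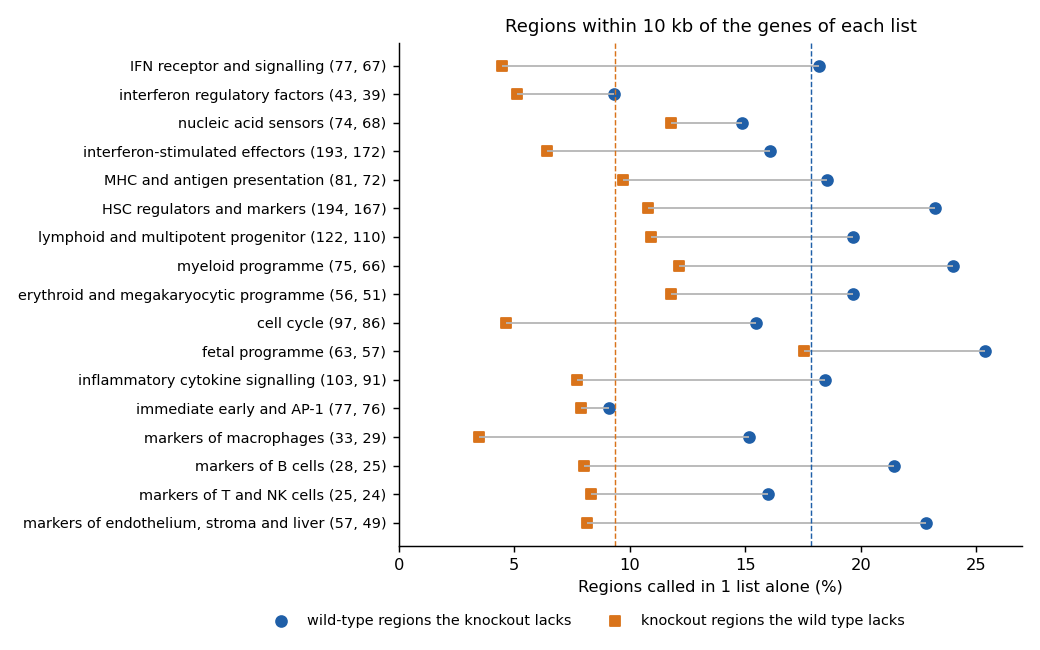
Percent of regions within 10 kb of the genes of each list that were called in wild-type HPCs alone (blue circles) or in knockout HPCs alone (orange squares), with the numbers of wild-type and knockout regions in brackets. Dashed lines mark all protein-coding genes, 17.8% and 9.34%, and the effectors (16.1% and 6.40%) lie left of both lines.

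The blood programmes were described with the same windows. Myeloid genes had 18 of 75 wild-type regions alone (24.0%) and 8 of 66 knockout regions (12.1%), and at equal length 18.8% and 13.6%. Itgam, the integrin CD11b of myeloid cells, had 4 alone in wild type, 1 of them strong (98.8), and 1 in the knockout. The starts of Mpo, the myeloperoxidase of granules (54.1), Ly6c2, a marker of monocytes (37.5), and Cebpb, a myeloid transcription factor (38.2), were called in wild type alone, 3 of the 10 myeloid starts called there, where 2.81% of all genes were, and none of 7 was called in the knockout alone. At Cebpb the knockout had a stronger region of its own close by (chr2:167688178-167688468, 55.3), and with any region within 1 kb of the start counted, Cebpb was called in both lists and the count was 2 of 11. The genes of HSC identity had 45 of 194 (23.2%) and 18 of 167 (10.8%), which at equal length became 13.4% and 18.0%. Among them Mecom, a regulator of stem cells, had 6 against 3, Hlf, another, 3 against 0, and Fli1, an ETS factor, 4 against 1, with none of these strong. The genes of the fetal programme, a list of 12, had 16 of 63 (25.4%) and 10 of 57 (17.5%), and at equal length 22.2% and 24.6%, and Hmga2, a target of the Lin28b and let-7 axis, had 5 against 3. Cell cycle genes had 15 of 97 (15.5%) and 4 of 86 (4.65%), and Cdkn1b, the cycle inhibitor p27, 3 against 0. Immediate early genes had 7 of 77 (9.09%) and 6 of 76 (7.89%).

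Markers of the sorted cells had regions in both lists. The strongest region within 10 kb had a -log10 p of 274 in wild type and 230 in the knockout at Kit, and the pairs were 309 and 232 at Ly6a, which encodes Sca-1, 87.6 and 101 at Cd48, 954 and 759 at Flt3, and 360 and 346 at Cd34. Genes of other cells mostly had no region at their starts: of 7 B cell markers none was called in either list, of 9 macrophage markers 2, of 12 of endothelium, stroma and liver 2, and of 10 of T and NK cells 3 in wild type and 2 in the knockout. Cd3g, of the T cell receptor complex, was the third, at 48.9 in wild type and in no other list of the 12. Starts are a narrower measure than the 10 kb used for the sorted cells. Within 10 kb, 10 of 10 B cell and 10 of 13 macrophage markers had a region in at least 1 list. It was 9 of 12 for T and NK cells and 14 of 18 for endothelium, stroma and liver. Cd79a, a B cell marker, reached 960 and 839, so the 10 kb values do not set the sorted cells apart.

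The lists were then set against the regions that HPCs have at 1 stage of life and not at another. Of 2901 strong regions of adult HPCs that fetal HPCs lacked, 52.3% (50.5 to 54.1) were called in P7 wild type and 37.6% (35.9 to 39.4) in the P7 knockout, with 508 in wild type only and 83 in the knockout only. Of 2462 strong regions of fetal HPCs that adult HPCs lacked, 26.8% and 29.0% were called, with 171 and 225. At equal list length the adult regions stood at 46.7% and 37.6% and the fetal ones at 21.6% and 29.0%, while the regions that fetus and adult share were equal, at 82.1% in each. Regions away from gene ends, 95.6% of the adult ones, gave 46.2% and 37.2% at equal length. The fetal and adult lists are stage lists, each a single list for its group.

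The regions that adult HPCs have and adult HSCs lack gave a gap in the same direction. Of 2982 strong regions of adult HPCs that adult HSCs lacked, 72.1% (70.5 to 73.7) were called in wild-type P7 HPCs and 54.3% (52.5 to 56.1) in knockout P7 HPCs, and at equal length 68.0% and 54.3%. Of 2190 strong regions of adult HSCs that adult HPCs lacked it was 17.9% and 17.7%, and at equal length 14.0% and 17.7%. With P14 lists the HPC regions gave 65.8% and 51.7%, and the HSC regions 53.8% and 54.1%. At equal length these P14 shares were 59.5% and 51.7% for HPC regions and 47.5% and 54.1% for HSC regions. With fetal lists the gap was small, 60.2% and 56.0% for HPC regions and 37.4% and 34.1% for HSC regions, and at equal length the HPC regions stood at 56.0% in both. Adult HPC regions in neither fetal HPCs nor adult HSCs, 826 in number, were at 57.0% and 36.0%, a gap of 21.1 percentage points, and those in both, 40341 in number, at 87.4% and 83.7%. The gap was 12.1 points for the 2075 that adult HSCs but not fetal HPCs had, and 16.6 points for the 2156 that fetal HPCs but not adult HSCs had. At equal length the 4 gaps were 15.7 points for the 826, 6.36 for the 2075, 12.9 for the 2156 and 1.36 for the 40341. The 826 overlap the other classes of adult regions given here and are not a further sample. In bulk cells a smaller share of 1 kind of progenitor and less open chromatin per cell cannot be told apart.

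**Figure D5:**
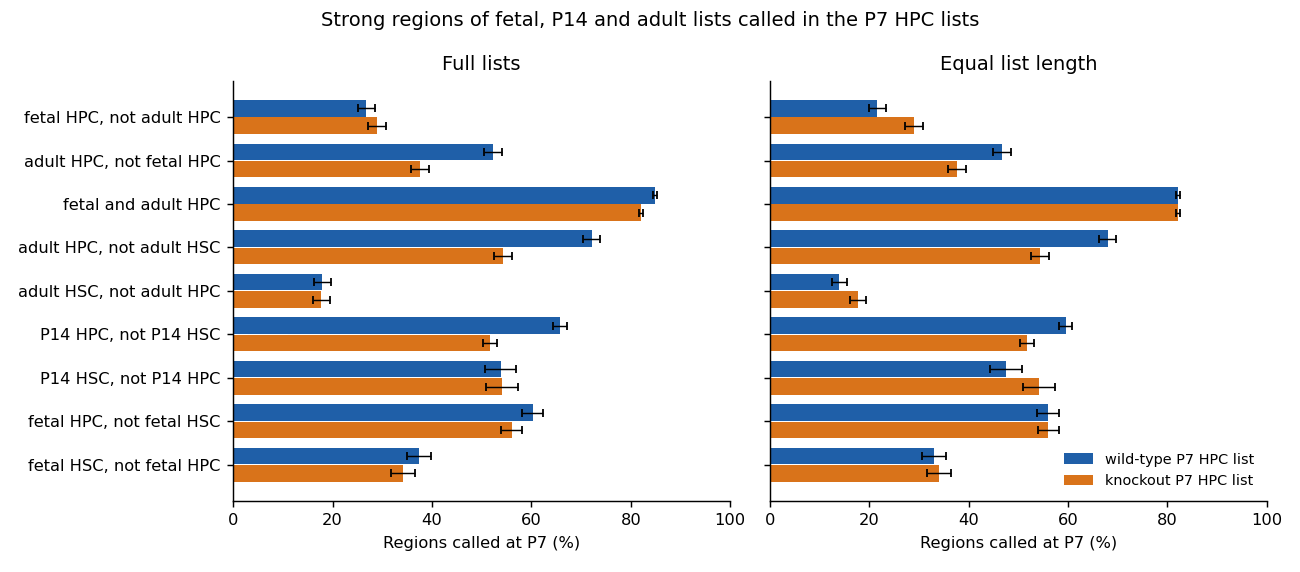
Percent of the strong regions of each class, named on the y axis, that were called in the wild-type (blue) and knockout (orange) P7 HPC lists, for full lists (left) and equal list length (right), with exact 95% intervals for counting error. Adult HPC regions that adult HSCs lack reach 72.1% in wild type and 54.3% in the knockout, and regions shared by fetal and adult HPCs are equal at 82.1% on the right.

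The strong regions of 1 genotype were looked up in the other lists of the series. Of the 279 of wild type alone, 95.0% were called in P14 HPCs, 90.3% in adult HPCs and 85.7% in P21 HPCs, against 51.6% in P14 HSCs and 53.8% in adult HSCs. Of the 50 of the knockout alone, 86.0% were called in P14 HSCs and in fetal HPCs, 78.0% in P14 HPCs and adult HSCs, and 68.0% in adult HPCs. Strong regions of wild type that both genotypes shared were called in the lists just named at 92.4 to 98.8%, and those of the knockout at 95.2 to 98.9%. A single region of the 279 was in none of the other 10 lists. In the P7 HPC stage list 82.8% of the 279 and 58.0% of the 50 were called. That list and the wild-type list compared here had a Jaccard index of 0.599, below the 0.739 between the 2 genotypes. At equal length the indices were 0.622 and 0.771. The stage list is of another kind, named filt where the lists of the 2 genotypes are named optimal_peak. It is also longer and weaker, with 78874 regions and a median -log10 p of 29.2, beside 66044 and 87.1 in wild type.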

How the data were processed

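Peaks were called by the authors with MACS2 after alignment with Bowtie2 to mm10 (GRCm38), per the submitters' processing notes, which give no versions in the sources used here. Each deposited list stands for all libraries of a group, combined in a way the sources used here do not state. It holds a score, a fold over background (a ratio), a -log10 p and a -log10 q for each peak, all set by the authors. The score was not used. The sources used here give no read depth.

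Peaks were joined into regions, leaving out 11 peaks of wild type and 16 of the knockout off chromosomes 1 to 19 and X. Regions were compared by overlap of 1 bp or more, in full and with each list cut to its 58567 strongest regions. With 1 list a group there is no test. Strong means the upper 50% of a list by -log10 p. Genes came from the RefSeq table of GRCm38.p6 (21631 protein-coding genes) and starts from its promoter table (250 bases before to 50 after). Of 369 entries in 18 gene lists 365 matched, the others being Mx1, Mx2, Oas1b and H19. Named genes were those nearest to the 12 strongest regions of each direction (within 50 kb, 1 region a gene, Gm and Rik names left out), 14 fixed interferon genes (1 of them not reported here), and up to 3 members a list whose counts differ by 2 or more. The members and lists were chosen with earlier results of these data known. The comparisons of gene starts, ranks, strength bands, HPC and HSC regions and regions at gene ends were added after the data were seen. The overlap step was checked on a copy of the wild-type list with randomly drawn regions removed and the rest shifted slightly. Its count of wild-type regions alone was checked against bedtools. Python 3.11.15, pandas 2.3.3, NumPy 2.4.6, SciPy 1.17.1 and matplotlib 3.10.9 were used.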

Additional observations from a re-analysis of the deposited data

How the results depend on the processing

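Each group has a single list, so no replicate could be left out. No paired analysis was possible because the lists hold no value of a single library. At equal list length, which keeps fewer wild-type regions, those of wild type alone went to 7607, strong ones to 126, the effector share to 8.77%, and the wild-type shares of fetal and adult regions to 21.6% and 46.7%. Gene starts of all genes went to 1.49% in wild type alone and 3.26% in the knockout alone, and effector starts of the knockout alone to 1. With an overlap of at least 50% of the region required, strong regions of the knockout alone rose to 130, and with strong set at the upper 25% they were 4 in wild type and 3 in the knockout. Within strong regions the effector shares were 1.80% and 0, and those of receptor and signalling genes 2.17% and 0, beside 0.637% and 0.170% for all genes. With fetal and adult regions of any strength, the fetal shares were 17.1% and 16.4% and the adult shares 29.6% and 20.6%. At equal length these became 13.1% and 16.4%, which turns the fetal direction, and 23.9% and 20.6%. Beyond the smaller number of regions, the cause was not tested. Leaving out chromosome 16, a -log10 q of at least 10 and merging peaks that lie close together each kept all 4 region counts within 1.5 times.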
